A study of Mus musculus with 4 samples.

Results

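Eosinophil markers and eotaxins were measured in mouse skin as 9 genes, listed by name for their known roles: the chemokines Ccl11 and Ccl24, the surface proteins Ccr3, Siglecf and Il5ra, the cytokine gene Il5, and the granule protein genes Prg2, Epx and Ear2. All 9 were found by symbol among the 39179 genes counted. The data were RNA sequencing read counts from 4 skin libraries on the C57BL/6 background. Of these, 2 were from lesional skin of mice labelled as Itch knockout (Itch KO) and 2 from skin of wild-type (WT) mice. Itch encodes a Nedd4-type E3 ubiquitin ligase, and mice that lack it are known for itching and inflamed skin. Every sample, also the WT ones, is labelled with inflammation as its phenotype, and the labels name no other allele or agent and give no ages. Nothing in the labels ties a library to its own animal, so the p-values reflect variation among these libraries, which may be technical.

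Eosinophils are granulocytes of type 2 immunity that are recruited in allergy and parasite infection. Interleukin-5, made by T helper 2 cells and group 2 innate lymphoid cells, drives their formation in the bone marrow through a receptor of Il5ra and the shared beta chain Csf2rb. The eotaxins Ccl11 and Ccl24 draw them into tissue through the receptor Ccr3. Their granules hold major basic protein (Prg2), eosinophil peroxidase (Epx) and ribonucleases of the Ear family, whose genes are transcribed mainly while the cells mature in the marrow. In skin, Ccl11 is known from fibroblasts and Ccl24 from macrophages, and Siglecf and Ear2 are also made by some macrophages and monocytes.

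Reads assigned to genes numbered 16008351 and 15881860 in the Itch KO libraries and 15407932 and 15144957 in the WT libraries. Levels are given in CPM, read counts relative to library sizes scaled by TMM, and a gene with 0 counts could have had up to about 0.2 CPM (3 counts), which covers counting error only. Itch had 185 and 184 counts in the Itch KO libraries, against 1450 and 1634 in the WT libraries. Itch reads were thus fewer in Itch KO but not absent. The groups also differed in sex-linked transcripts: Xist stood at 0.947 and 0.892 CPM in Itch KO and at 1055 and 631 CPM in WT, and 4 Y-linked genes summed to 176 and 153 CPM in Itch KO and to 0.267 and 0.316 CPM in WT. Genotype and sex therefore cannot be told apart in any result below. The WT libraries were less alike than the Itch KO libraries. Pearson's r on log2(CPM + 1) was 0.983 for the Itch KO pair and 0.923 for the WT pair. It was taken over 16651 genes, which are not independent replicates. WT replicate 2 was nearer to Itch KO replicates 1 and 2 (r = 0.931 and 0.945) than to WT replicate 1. WT replicate 1 had r = 0.849 and 0.850 with Itch KO replicates 1 and 2. WT replicate 1 stood apart in 6 skeletal muscle genes, which summed to 971 and 783 CPM in Itch KO and to 12347 and 2053 CPM in WT replicates 1 and 2. The part of muscle RNA in the results below was not tested. Fold changes without WT replicate 1 are given below for the 6 genes that could be tested, and medians without it for the gene lists.

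The promoter sequences of the receptor genes and of Il5 are shown because the transcription factor GATA1, which is needed for eosinophil development, binds GATA motifs, and Ccr3 was the gene of this group with the largest difference. Each is the 250 bases before the RefSeq start site on GRCm38.p6, written 5′ to 3′ on the strand of the gene, and capitals mark a GATA motif on either strand. The letters searched were AGATAA and TGATAA, and with a final G also AGATAG and TGATAG.
Ccr3 (chr9:124021721-124021970, plus strand): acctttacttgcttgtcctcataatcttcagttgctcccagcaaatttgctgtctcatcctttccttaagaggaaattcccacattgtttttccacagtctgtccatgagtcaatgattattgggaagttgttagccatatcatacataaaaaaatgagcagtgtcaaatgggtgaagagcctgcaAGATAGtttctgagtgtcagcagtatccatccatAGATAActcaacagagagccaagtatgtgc
Il5ra (chr6:106749038-106749287, minus strand): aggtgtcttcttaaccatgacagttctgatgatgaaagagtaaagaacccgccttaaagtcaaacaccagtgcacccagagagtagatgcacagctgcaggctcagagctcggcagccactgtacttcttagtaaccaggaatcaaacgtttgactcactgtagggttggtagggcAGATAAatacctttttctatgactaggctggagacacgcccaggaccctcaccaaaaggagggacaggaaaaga
Il5 (chr11:53720544-53720793, plus strand): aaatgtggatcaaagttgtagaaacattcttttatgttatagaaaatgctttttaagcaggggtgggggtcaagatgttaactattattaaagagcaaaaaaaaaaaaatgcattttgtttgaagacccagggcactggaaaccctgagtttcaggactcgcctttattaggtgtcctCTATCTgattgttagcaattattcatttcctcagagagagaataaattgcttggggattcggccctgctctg
Siglecf (chr7:43351091-43351340, plus strand): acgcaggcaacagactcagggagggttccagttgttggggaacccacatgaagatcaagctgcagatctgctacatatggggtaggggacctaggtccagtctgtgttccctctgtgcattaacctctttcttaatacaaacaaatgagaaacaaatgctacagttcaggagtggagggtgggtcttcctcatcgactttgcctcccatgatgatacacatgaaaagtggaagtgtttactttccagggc

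Promoters of 6 of the 9 genes were in the RefSeq table, those of Prg2, Ccl11 and Ccl24 not being among them. A GATA motif lay in 3 of these 6 windows (2 in Ccr3, 1 each in Il5ra and Il5) and in none of those of Siglecf, Epx and Ear2, while 26.5% of 32851 promoter windows of the same length held at least 1. The STAT motif TTCNNNGAA, on both strands, lay in 0 of the 6 windows, against 7.02% of all windows. These are descriptions of the letters in these windows and not of binding. Of the genes with a motif, Il5ra and Il5 had 5 counts or fewer in every library, as given below. The part of the motifs in the level of any gene was not tested.

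Both eotaxin genes were higher in both Itch KO libraries than in either WT library. Ccl11 (ENSMUSG00000020676, GRCm38 chromosome 11, 82057823 to 82062955, plus strand) encodes eotaxin-1. It stood at 86.9 and 72.6 CPM in Itch KO replicates 1 and 2, against 30.4 and 21.6 CPM in WT replicates 1 and 2, with no overlap. Its log2 fold change, Itch KO over WT, was 1.62 (SE 0.24). The edgeR quasi-likelihood test did not pass the threshold of 0.05 (adjusted p = 0.0766 over all genes), and DESeq2 called it higher (adjusted p = 6.96e-06).

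Ccl24 (ENSMUSG00000004814, chromosome 5, 135569937 to 135573049, minus strand) encodes eotaxin-2 and varied most within the Itch KO group. It stood at 17.3 and 63.6 CPM in Itch KO replicates 1 and 2, against 5.87 and 3.47 CPM in WT replicates 1 and 2. Itch KO replicate 2 was thus 3.67 times as high as Itch KO replicate 1, though both lay above the WT libraries. The log2 fold change was 3.11 (SE 0.76), with adjusted p = 0.139 in edgeR and 0.000219 in DESeq2. It was 3.76 without Itch KO replicate 1 and 1.89 without Itch KO replicate 2.

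Scaled by exon length as well as library size (TPM), the Ccl24 level was 0.166 and 0.731 of the Ccl11 level in Itch KO replicates 1 and 2, and 0.161 and 0.134 of it in WT replicates 1 and 2. The share of Ccl24 in Itch KO replicate 1 was therefore close to that in WT, and Itch KO replicate 2 alone stood higher. Markers of the cells known to make these chemokines were mostly higher in Itch KO as well. The 8 fibroblast markers summed to 14148 and 12751 CPM in Itch KO and to 2219 and 3421 CPM in WT. Col3a1 alone held 5169 and 4381 CPM of the Itch KO sums. The 10 macrophage markers summed to 1470 and 1578 CPM in Itch KO and to 338 and 233 CPM in WT. In edgeR 7 of 8 fibroblast and 7 of 9 tested macrophage markers reached an unadjusted p under 0.05, all higher. That was against 12.0% of all genes higher, and 0 passed over all genes. Dpt, Mertk and Retnla did not reach it. Of the 9, 1 passed the filter only through its Itch KO counts. The part of these cells in the eotaxin levels was not tested. In bulk tissue more cells of a type and more RNA per cell cannot be told apart.

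**Figure D1:**
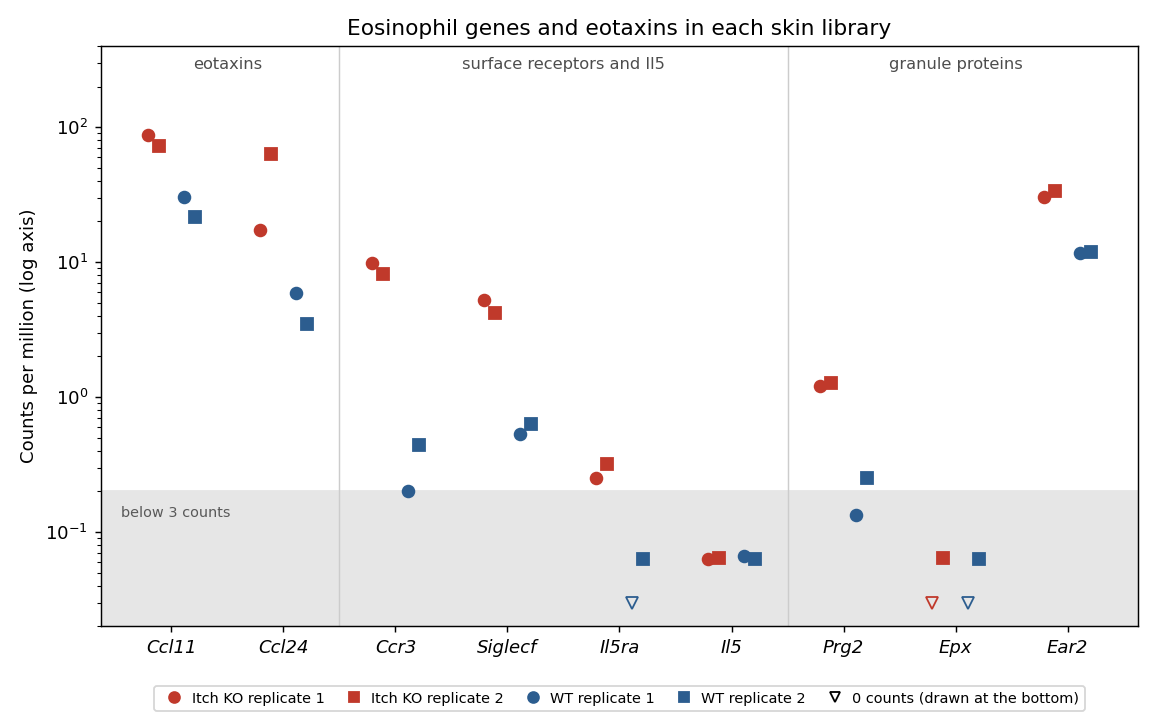
Level of each gene in each library, in CPM on a log axis, with Itch KO libraries in red to the left of WT libraries in blue; open triangles mark 0 counts and the grey band lies below 3 counts. Ccl11, Ccl24, Ccr3, Siglecf, Prg2 and Ear2 show both Itch KO points above both WT points, while Il5 and Epx stay in the band in all 4 libraries.

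The eotaxin receptor showed the largest difference of the 9 genes. Ccr3 (ENSMUSG00000035448, chromosome 9, 124021972 to 124031689, plus strand) was counted 155 and 129 times in Itch KO replicates 1 and 2 and 3 and 7 times in WT replicates 1 and 2. The log2 fold change was 4.77 (SE 0.52), and 108 of 16651 tested genes (0.649%) had a larger one. It did not pass in edgeR (adjusted p = 0.0624) and was called by DESeq2 (adjusted p = 1.19e-09). Summed over the libraries, 284 counts in Itch KO against 10 in WT gave a ratio of 27.8 with an exact 95% interval of 14.9 to 58.6 for counting error alone.

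Siglecf (ENSMUSG00000039013, chromosome 7, 43351341 to 43359531, plus strand), an inhibitory sialic acid receptor used to mark mouse eosinophils, went the same way. It stood at 5.24 and 4.21 CPM in Itch KO replicates 1 and 2, against 0.533 and 0.631 CPM in WT replicates 1 and 2. The log2 fold change was 3.002 (SE 0.41), with adjusted p = 0.0727 in edgeR and 0.000287 in DESeq2. The libraries of each group lay close together, at 4.72 ± 0.73 CPM in Itch KO and 0.582 ± 0.069 CPM in WT (SD, n = 2 each).

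The order of Ccr3 and Siglecf turned round between the groups. In TPM, Ccr3 stood above Siglecf in both Itch KO libraries (7.96 and 6.70 against 4.996 and 4.02) and below it in both WT libraries (0.176 and 0.402 against 0.552 and 0.673). The Siglecf level was 0.628 and 0.60 of the Ccr3 level in Itch KO and 3.13 and 1.68 times it in WT. The WT values rest on 3 to 10 counts per library and the change in ratio was not tested.

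The interleukin-5 arm was hardly measured at this depth. Il5 (ENSMUSG00000036117, chromosome 11, 53720794 to 53725106, plus strand) had 1 count in each of the 4 libraries, so a difference was not detectable. An annotated antisense gene, Gm12214, overlaps its exons, and whether the counting used strand is not given in the sources used here. Il5ra (ENSMUSG00000005364, chromosome 6, 106710357 to 106749037, minus strand), the ligand-specific receptor chain, had 4 and 5 counts in Itch KO and 0 and 1 in WT. Its ratio of summed counts was 8.80, with an exact 95% interval of 1.22 to 386 for counting error alone. The gene was below the filter on low counts and was tested only in the fit without a filter, where it did not pass (adjusted p = 0.326).

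The granule protein genes did not share one level or one pattern. Epx (ENSMUSG00000052234, chromosome 11, 87864000 to 87875536, minus strand) had 0 and 1 counts in Itch KO and 0 and 1 in WT, so it was not detectable above 3 counts in any library, lesional skin included. Prg2 (ENSMUSG00000027073, chromosome 2, 84980461 to 84983632, plus strand) was low but counted, with 19 and 20 counts in Itch KO and 2 and 4 in WT. Its log2 fold change of 2.62 (SE 0.54) passed in neither tool (adjusted p = 0.110 in edgeR and 0.133 in DESeq2). The ratio of summed Prg2 counts was 6.36, with an exact 95% interval of 2.67 to 18.4 for counting error alone.

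Ear2 (ENSMUSG00000072596, chromosome 14, 44102654 to 44103534, plus strand) was the most abundant of Prg2, Epx and Ear2 in every library. It stood at 30.4 and 33.7 CPM in Itch KO replicates 1 and 2, against 11.7 and 11.9 CPM in WT replicates 1 and 2. The log2 fold change of 1.44 (SE 0.20) was the smallest of the 6 genes tested, with adjusted p = 0.0730 in edgeR and 4.77e-06 in DESeq2. Of the 50-base stretches in its annotated transcripts, 41.5% also occur in transcripts of Ear1, Ear6, Ear10 or Ear pseudogenes, so its counts are uncertain. None of the 50-base stretches of Ccr3, Prg2, Epx, Ccl11 or Ccl24 occurs in another gene, and 0.206% of those of Siglecf do.

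Within the group, the Ear2 level was 14.2 and 18.7 times the Ccr3 level in Itch KO libraries and 267 and 122 times it in WT libraries, in TPM. Ear2 transcripts were thus present in WT skin at 47.1 and 49.1 TPM while Ccr3 was at 0.176 and 0.402 TPM. Prg2 was at 0.479 and 0.605 of the Ccr3 level in Itch KO and at 2.60 and 2.23 times it in WT. The WT ratios rest on 3 and 7 counts of Ccr3 and 2 and 4 of Prg2. The changes in ratio were not tested.

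In TPM, Ccl11 led the 9 genes in all 4 libraries (214 and 179 in Itch KO, 81.1 and 59.4 in WT). Ear2 was second in 3 libraries, at 113 TPM in Itch KO replicate 1 and the WT values above. In Itch KO replicate 2 Ccl24 (131 TPM) stood just above Ear2 (125 TPM). Ccr3, Siglecf and Prg2 followed in Itch KO, where Siglecf (4.996 and 4.02 TPM) and Prg2 (3.81 and 4.05 TPM) overlapped. In WT these 3 lay between 0.176 and 0.896 TPM, with Siglecf and Prg2 again overlapping. Il5ra, Il5 and Epx were at or below 0.238 TPM in every library.

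Of the 9 genes, 6 could be tested and 3 (Il5, Il5ra and Epx) fell below the filter. Ccr3, Siglecf and Prg2 passed the filter only through their Itch KO counts, and Ccl11, Ccl24 and Ear2 would have passed on WT counts as well. In edgeR 0 of the 6 passed over all genes, against 0.00601% of all genes tested. At an unadjusted p under 0.05 it was 6, all higher, against 12.0% of all genes higher, and limma-voom gave the same numbers, 0 and 6, with 12.5% of all genes higher at an unadjusted p under 0.05. DESeq2 called 5, all but Prg2, against 7.83% of all genes called higher. All 6 tested genes and Il5ra had both Itch KO libraries above both WT libraries, which held for 31.2% of tested genes, while the reverse held for 30.0%. These counts include genes that entered the test through the group where they are high.

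Leaving out libraries changed the edgeR calls. Without WT replicate 1, the library with the high muscle transcripts, 4 passed (Ccr3, Siglecf, Ear2 and Ccl11), against 5.52% of all genes called higher. The same 4 passed without WT replicate 2, against 15.3% of all genes called higher, and in the fit without a filter on low counts, against 1.71%. Without either Itch KO library edgeR called no gene, whether of these 6 or of all genes tested. A lone library was assumed to vary like the 2 of the other group. Without WT replicate 1 the log2 fold change was 4.32 for Ccr3, 2.88 for Siglecf, 2.25 for Prg2, 1.43 for Ear2, 1.88 for Ccl11 and 3.54 for Ccl24, all higher in Itch KO. The log2 fold change of Ccr3 lay between 4.32 and 5.44 over these 4 fits, that of Siglecf between 2.83 and 3.16, that of Prg2 between 2.25 and 3.14, that of Ear2 between 1.37 and 1.51, and that of Ccl11 between 1.40 and 1.88.

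**Figure D2:**
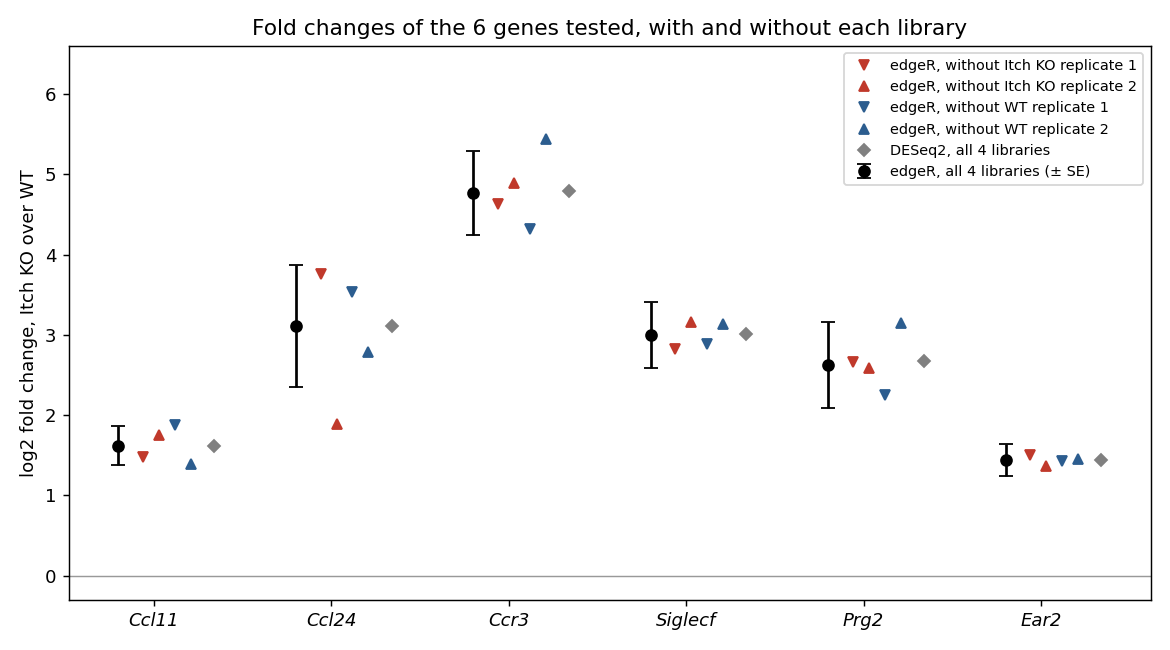
Log2 fold changes, Itch KO over WT, of the 6 genes tested: black points with SE bars from edgeR on all 4 libraries, triangles from edgeR without 1 library, and grey diamonds from DESeq2. Every point lies above 0, Ear2 moves least between fits, and Ccl24 spans 1.89 to 3.76.

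Leukocyte transcripts as a whole were higher in the lesional libraries, so the levels were also set against Ptprc, the CD45 gene of all white blood cells. Ptprc stood at 129 and 80.5 CPM in Itch KO replicates 1 and 2, against 36.5 and 21.8 CPM in WT replicates 1 and 2 (log2 fold change 1.85, SE 0.38, edgeR adjusted p = 0.111). The 5 leukocyte genes Ptprc, Cd52, Coro1a, Laptm5 and Cd53 had a median log2 fold change of 2.41.

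Set against Ptprc in the same library, the genes divided. Ccr3 was at 7.58% and 10.2% of Ptprc in Itch KO and at 0.547% and 2.03% in WT. Siglecf was at 4.06% and 5.23% in Itch KO and at 1.46% and 2.90% in WT. For both, the Itch KO libraries stayed above the WT libraries. Prg2, at 0.929% and 1.58% in Itch KO and 0.365% and 1.16% in WT, overlapped between the groups. The WT values rest on few counts in replicates 1 and 2: 3 and 7 for Ccr3, 8 and 10 for Siglecf, 2 and 4 for Prg2. The share of all genes that stay above on this scale was not computed.

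Ear2 was at 23.6% and 41.9% of Ptprc in Itch KO and at 32.1% and 54.5% in WT. Ccl11, known in skin mainly from fibroblasts, was at 67.3% and 90.3% in Itch KO and at 83.2% and 99.1% in WT. Both overlapped between the groups on this scale, with a lower mean in Itch KO. Ccl24 was at 13.4% and 79.0% in Itch KO and at 16.1% and 15.9% in WT, so Itch KO replicate 1 lay below both WT libraries on this scale. These ratios are descriptions and were not tested.

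The choice of leukocyte gene changed some of these patterns. Ptprc had the smallest log2 fold change of the 5, and Cd52, Coro1a, Laptm5 and Cd53 were set in its place after its values were seen. Ccr3 stayed higher in both Itch KO libraries against all 5. Siglecf did so against 4 and overlapped against Cd53, at 2.77% and 4.37% of it in Itch KO and 2.64% and 4.52% in WT. Ear2 was lower in both Itch KO libraries against 4 of the 5, all but Ptprc, for example at 27.0% and 35.9% of Cd52 in Itch KO and 58.5% and 63.3% in WT. Ccl11 was likewise lower against the same 4, at 77.0% and 77.3% of Cd52 in Itch KO and 151% and 115% in WT. Prg2 and Ccl24 overlapped between the groups against all 5.

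**Figure D3:**
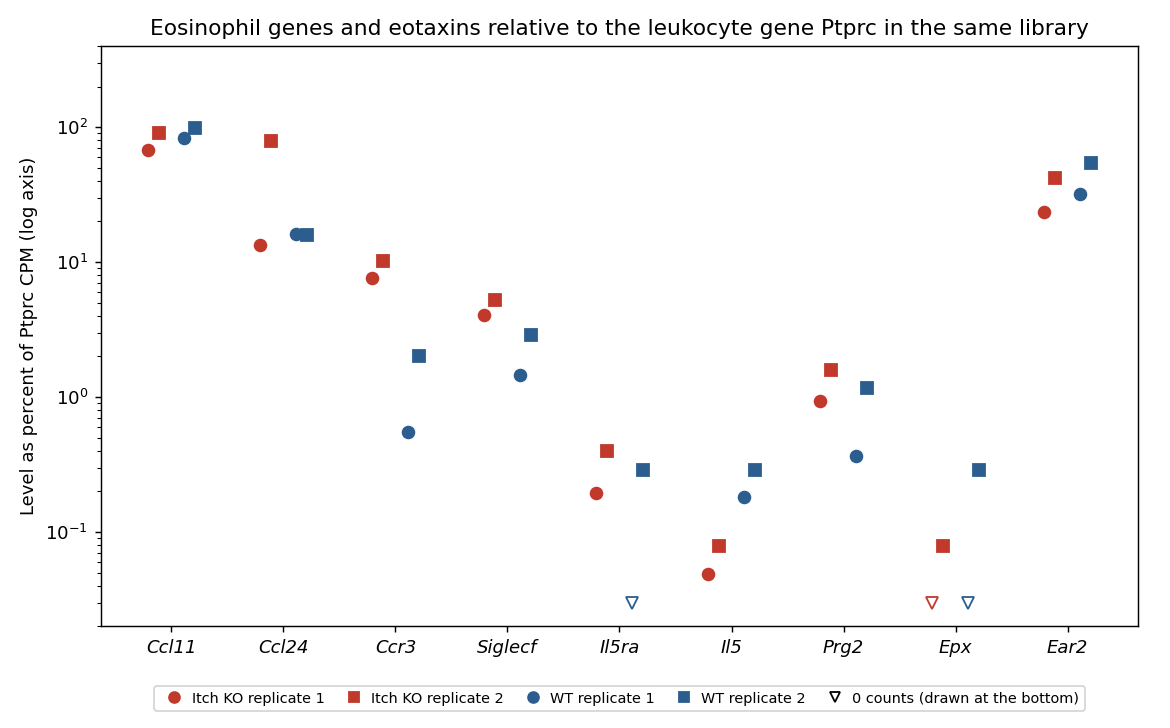
Level of each gene as a percent of the Ptprc level of the same library, on a log axis, with Itch KO libraries in red to the left of WT libraries in blue and open triangles for 0 counts. Ccr3 and Siglecf keep both Itch KO points above both WT points, whereas Ccl11, Ear2 and Prg2 overlap between the groups. The WT points of Ccr3, Siglecf and Prg2 rest on 10 counts or fewer.

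Other genes with roles in eosinophils were mostly higher in Itch KO, although several are shared with other myeloid cells. Of 13 measured, 10 were tested. In edgeR 0 passed and 8, all higher, reached an unadjusted p under 0.05, against 12.0% of all genes higher. The DESeq2 calls numbered 8, also higher, against 7.83% of all genes. Of the 10 tested, 4 passed the filter only through their Itch KO counts. The median log2 fold change was 2.91, against 0.01 over all genes tested. Alox15, a 12/15-lipoxygenase of eosinophils and some macrophages, stood at 23.6 and 32.4 CPM in Itch KO and at 1.13 and 1.26 CPM in WT (log2 fold change 4.54, SE 0.32, edgeR adjusted p = 0.0548). Cebpe, a transcription factor of granulocyte maturation, stood at 2.21 and 3.38 CPM in Itch KO and at 0.0667 and 0.0631 CPM in WT (edgeR adjusted p = 0.0624). Adgre1, the F4/80 antigen found on both macrophages and eosinophils, stood at 86.8 and 74.2 CPM in Itch KO and at 19.6 and 20.6 CPM in WT (edgeR adjusted p = 0.0548). Adgre4, named after its values were seen, overlapped between the groups. It stood at 5.68 and 3.19 CPM in Itch KO and at 8.53 and 3.41 CPM in WT (log2 fold change -0.43, edgeR adjusted p = 0.692).

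The ribonuclease family was uneven. Rnase2a, for which RefSeq lists Ear11 as a synonym, had 52 and 790 counts in Itch KO replicates 1 and 2 and 2 counts in each WT library. It was thus 15.3 times as high, in CPM, in Itch KO replicate 2 as in replicate 1, the same library in which Ccl24 was high. Ear6 overlapped between the groups (0.821 and 0.701 CPM in Itch KO, 0 and 1.01 CPM in WT), Ear1 had 2 and 4 counts in Itch KO and 1 and 0 in WT, and Ear10 had 0 counts in all 4. Rnase2a, Ear6, Ear1 and Ear10 were singled out after their values were seen.

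Other chemokines known to bind Ccr3 were Ccl7, Ccl5 and Ccl28. Ccl7 stood at 58.3 and 101 CPM in Itch KO and at 3.87 and 4.67 CPM in WT (log2 fold change 4.22, SE 0.37, edgeR adjusted p = 0.0548, DESeq2 adjusted p = 6.02e-22). Ccl5 stood at 16.5 and 4.27 CPM in Itch KO and at 1.00 and 1.39 CPM in WT (edgeR adjusted p = 0.144). Ccl7 therefore stood above Ccl24 in both Itch KO libraries in CPM, a scale that does not correct for transcript length. In TPM it also stood above Ccl24, at 194 and 335 against 35.5 and 131 in Itch KO replicates 1 and 2. Ccl28 had 11 counts over the Itch KO libraries and 8 over the WT libraries and was below the filter.

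Genes of the interleukin-5 receptor family and its signalling included receptor chains and intracellular proteins. Of 15 listed, 13 were tested, and in edgeR 0 passed, while 7 reached an unadjusted p under 0.05 as higher and 0 as lower, against 12.0% and 10.9% of all genes. DESeq2 called 6 higher and 0 lower, where 7.83% and 6.16% of all genes were called in these directions. Csf2rb, the beta chain shared by the receptors for interleukin-3, interleukin-5 and GM-CSF, stood at 99.0 and 79.3 CPM in Itch KO and at 25.5 and 17.4 CPM in WT (log2 fold change 2.06, SE 0.27, edgeR adjusted p = 0.0697). Lyn, a kinase bound to that chain, stood at 68.4 and 47.9 CPM in Itch KO and at 13.2 and 9.22 CPM in WT (edgeR adjusted p = 0.0697), and Il3ra at 24.5 and 19.6 CPM in Itch KO and at 5.93 and 6.56 CPM in WT (edgeR adjusted p = 0.0746). The list's median log2 fold change was 0.69. Jak1, Stat5a and Stat5b, named after their values were seen, overlapped between the groups. Their log2 fold changes were -0.21, -0.03 and -0.48.

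Signals upstream of eosinophils also went in several directions. Of 15 type 2 genes, 14 were tested. In edgeR 0 passed. An unadjusted p under 0.05 was reached by 6 as higher and by 2 as lower, against 12.0% and 10.9% of all genes. DESeq2 called 4 higher and 2 lower, against 7.83% and 6.16% of all genes, and 1 of the 14 passed the filter only through its Itch KO counts. Il1rl1, the interleukin-33 receptor, stood at 53.0 and 79.9 CPM in Itch KO and at 2.93 and 5.11 CPM in WT (edgeR adjusted p = 0.0559). Il4ra, the receptor chain shared by interleukin-4 and interleukin-13, stood at 291 and 409 CPM in Itch KO and at 81.6 and 83.1 CPM in WT (edgeR adjusted p = 0.0617). Crlf2, the receptor chain for TSLP, stood at 25.1 and 23.8 CPM in Itch KO and at 10.4 and 8.40 CPM in WT (edgeR adjusted p = 0.0877).

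The cytokines that share a locus or a source with Il5 had low counts. Il13 had 32 counts over the Itch KO libraries and 7 over the WT libraries (log2 fold change 2.12, edgeR adjusted p = 0.134). Il4 had 126 over the Itch KO libraries and 48 over the WT libraries (log2 fold change 1.36, edgeR adjusted p = 0.175). For both genes the Itch KO libraries lay above the WT libraries, which held for 31.2% of tested genes. Il13 passed the filter only through its Itch KO counts. Gata3, a factor of Il5-producing lymphocytes that keratinocytes and hair follicles also express, was lower, at 135 and 157 CPM in Itch KO and 330 and 248 CPM in WT (log2 fold change -0.99, SE 0.21, edgeR adjusted p = 0.115, DESeq2 adjusted p = 0.00236). Il13, Il4 and Gata3 were chosen for naming after their values were seen.

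Genes of adhesion and migration used by eosinophils and by other leukocytes were higher in most cases. Of 14 listed, 13 were tested, of which 0 passed in edgeR. An unadjusted p under 0.05 was reached by 11 as higher, against 12.0% of all genes, and the DESeq2 calls numbered 11, also higher, against 7.83% of all genes. Of the 13, 1 passed the filter only through its Itch KO counts. Ccr1, a chemokine receptor of neutrophils, monocytes and eosinophils, stood at 109 and 56.1 CPM in Itch KO and at 1.60 and 1.70 CPM in WT (edgeR adjusted p = 0.0548). Selplg, the ligand of P-selectin, stood at 86.6 and 82.4 CPM in Itch KO and at 14.5 and 14.4 CPM in WT (edgeR adjusted p = 0.0548). Vcam1, an endothelial ligand for eosinophil integrins that was picked after its values were seen, stood at 42.9 and 30.5 CPM in Itch KO and at 5.07 and 5.68 CPM in WT (edgeR adjusted p = 0.0558).

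**Figure D4:**
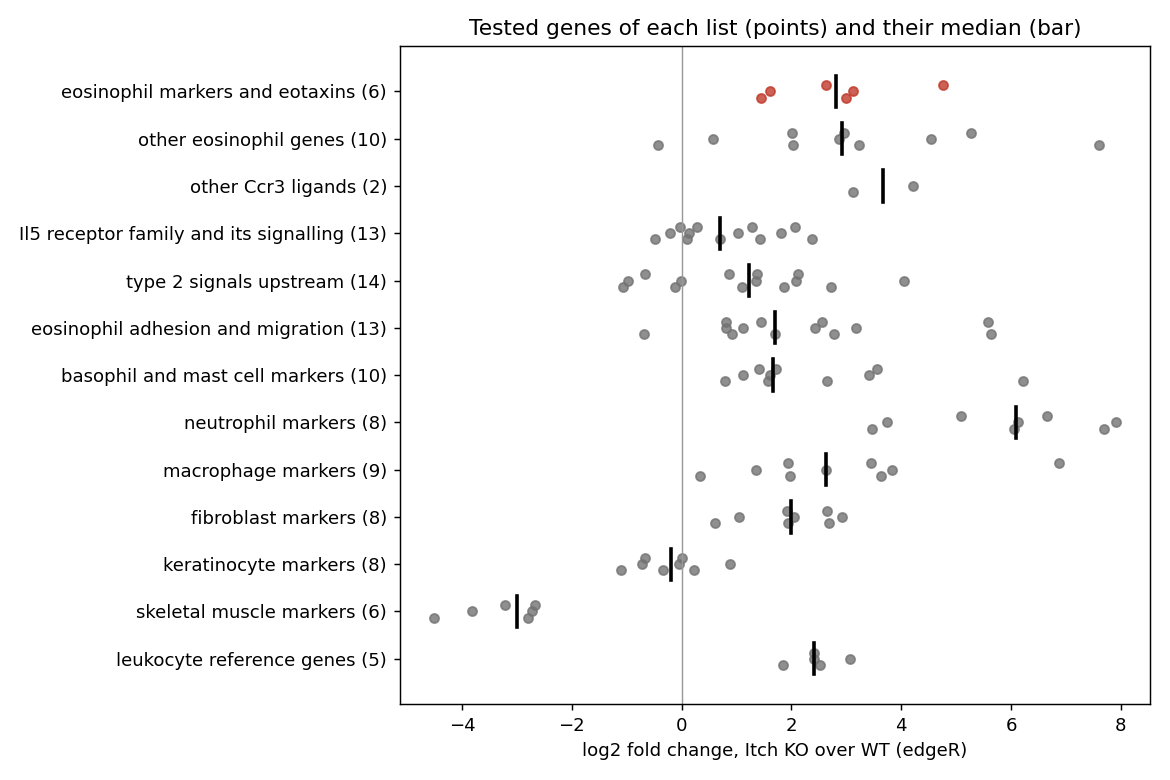
Log2 fold change, Itch KO over WT, of every tested gene of each list (points, with the number tested in brackets) and the list's median (black bar). The eosinophil markers and eotaxins, in red, lie between 1.44 and 4.77, a range in which genes of the neutrophil, macrophage and basophil or mast cell lists also fall.

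Markers of cells that share transcripts with eosinophils were higher in the same libraries. Neutrophil markers summed to 2042 and 863 CPM in Itch KO and to 10.1 and 32.3 CPM in WT, with the defining marker Ly6g at 0 counts in both WT libraries. S100a8 and S100a9, which inflamed keratinocytes also make, held 1658 and 713 CPM of these sums in Itch KO and 6.87 and 21.2 CPM in WT, and the other 8 markers 384 and 150 CPM in Itch KO and 3.27 and 11.1 CPM in WT. Camp, a granule gene, stood at 2.59 and 2.80 CPM in Itch KO and at 0.267 and 0.126 CPM in WT. The granule genes Ngp and Ltf were uneven in Itch KO and fell below the filter. Ngp had 190 and 10 counts in Itch KO replicates 1 and 2, and Ltf had 102 and 7. Ly6g had 46 and 15 counts in these libraries. Of 8 tested, 7 had an unadjusted p under 0.05 in edgeR, all higher, against 12.0% of all genes, and 0 passed over all genes. DESeq2 called 8 higher, against 7.83% of all genes. Of the 8, 5 passed the filter only through their Itch KO counts. The receptor Csf3r stood at 79.1 and 51.0 CPM in Itch KO and at 1.73 and 2.08 CPM in WT, and the Ccr3 level was 0.136 and 0.178 of the Csf3r level in Itch KO and 0.127 and 0.234 of it in WT, in TPM. That ratio overlapped between the groups.

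Basophil and mast cell markers, of interest because human basophils are known to carry CCR3, summed to 433 and 758 CPM in Itch KO and to 125 and 220 CPM in WT. Of the 10, all tested, 8 had an unadjusted p under 0.05 in edgeR, all higher, against 12.0% of all genes, and 0 passed over all genes. DESeq2 called 7 higher, against 7.83% of all genes. Of the 10, 3 passed the filter only through their Itch KO counts. Mcpt8, a basophil protease, stood at 7.58 and 12.9 CPM in Itch KO and at 0.0667 and 0.189 CPM in WT (log2 fold change 6.22, SE 0.66, edgeR adjusted p = 0.0603). The Ccr3 level was 0.394 and 0.194 of the Mcpt8 level in Itch KO and 0.915 and 0.712 of it in WT, in TPM, where the WT values rest on 1 to 7 counts per gene.

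Among the macrophage markers, Cd163 was even between the Itch KO libraries (214 and 216 CPM, against 17.9 and 12.4 CPM in WT), and Mrc1 nearly so (368 and 432 CPM, against 26.3 and 38.4 CPM in WT). Retnla, a marker of alternative activation, followed Ccl24 in being higher in Itch KO replicate 2 (149 and 358 CPM in Itch KO replicates 1 and 2, 106 and 25.7 CPM in WT). Chil3 went the other way, at 80.0 and 36.3 CPM in Itch KO and 0.467 and 0.505 CPM in WT. Marco, a receptor of alveolar and some other macrophages that carry Siglecf, had 8 counts over the Itch KO libraries and 6 over the WT libraries. The part of neutrophils, basophils, mast cells and macrophages in the levels of the 9 genes was not tested. Camp, Ngp, Ltf, Retnla and Marco were singled out after their values were seen.

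Without WT replicate 1, the median log2 fold change was 2.79 for the other eosinophil genes, against 2.91 with all 4 libraries. It was 0.93 against 0.69 for the interleukin-5 receptor family, 1.46 against 1.23 for the type 2 genes and 1.799 against 1.70 for adhesion and migration. Among the marker lists it was 1.37 against 1.66 for basophils and mast cells, 3.15 against 2.63 for macrophages, 1.801 against 1.99 for fibroblasts and 2.47 against 2.41 for the leukocyte genes. The neutrophil median was 5.62 without that library and 6.09 with all 4, or 5.56 with Ly6g, at 0 in WT, set at its lower bound. All of these medians stayed above 0. The median of the keratinocyte markers was below 0, at -0.189 without WT replicate 1 and -0.188 with all 4 libraries. That of the skeletal muscle markers was -1.25 without WT replicate 1 and -3.00 with all 4.

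The genes most like each of the 6 tested genes were found among 14175 named genes of at least 1 CPM on average, by the root mean square difference of log2(CPM + 0.5) profiles centred over the 4 libraries. Nearest to Ccr3 were the complement genes C1qa and C1qc (0.11 and 0.12 log2 units) and the C-type lectin Clec4n (0.14). C1qa stood at 421 and 383 CPM in Itch KO and at 30.3 and 47.1 CPM in WT. Ccr3 stood at 9.79 and 8.22 CPM in Itch KO and at 0.200 and 0.442 CPM in WT. Its WT values lie below the 0.5 CPM added, so the small distance to C1qa does not mean an equal fold change. Nearest to Siglecf were Glipr2, Sirpb1c and Loxl3 (0.04 each), and nearest to Prg2 were Ebi3, Zyx and Fgf7 (0.02 each).

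Nearest to Ccl11 was Thbs2, a matrix protein gene (0.02), at 332 and 269 CPM in Itch KO and at 115 and 84.6 CPM in WT, followed by Amigo2 and Napsa (0.05 and 0.06). Nearest to Ear2 were Socs1, Nfatc4 and Cytip (0.05, 0.06 and 0.07). Ccl24 had no close match: Hba-a2, Alas2 and Msx3 came nearest at 0.31, 0.31 and 0.37. With 4 libraries many genes share a profile, and the 0.5 CPM added shrinks the differences of low genes such as Ccr3, Siglecf and Prg2.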

How the data were processed

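The deposited files hold raw read counts for each Ensembl gene, and no normalization had been applied to them. The submitters' processing notes list CASAVA 1.8.2 and TopHat2, then SAMtools 0.1.19 with HTSeq 0.6.1, on the mm10 (GRCm38) build. The annotation release and strand setting were not given in the sources used here.

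The 5 counter lines stayed out (5.68% to 7.45% of counted reads without a feature, 4.48% to 4.70% ambiguous). GENCODE vM21 named 37607 of 39179 genes and gave exon lengths for TPM.

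The test was run in edgeR 4.0.16 under R 4.3.3, with filterByExpr (minimum count 10), TMM, the quasi-likelihood F test (legacy, robust, two-sided), Benjamini-Hochberg adjustment over all genes and a threshold of 0.05. DESeq2 1.42.0 and limma 3.58.1 (voom), other scalings, no filter, a replicate block and leaving out each library were alternatives. The procedure was tested on simulated counts.

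The genes and lists were chosen with earlier results of these data known. Named from each list were the 3 genes of smallest p, except where stated and except from the marker lists, given as sums with examples. The similar-profile rule took the 3 nearest genes. A gene that the rule on smallest p would name is not reported here.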

Additional observations from a re-analysis of the deposited data

How the results depend on the processing

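Over all genes, edgeR called 1 gene, 2329 with DESeq2, 0 with limma-voom (3582 at an unadjusted p under 0.05), 488 without the filter on low counts, and 1 with RLE factors or with library totals. Without X and Y genes, a fit chosen after seeing the data, edgeR called 0 (3649 at an unadjusted p under 0.05). Leaving out 1 library gave between 0 and 5320 calls over all genes. Of the eosinophil genes and eotaxins, edgeR called 0, DESeq2 called 5, edgeR without the filter called 4, and leaving out 1 library gave between 0 and 4. The count stayed at 0 with limma-voom, RLE factors, library totals and without X and Y genes. Set against Cd53 in place of Ptprc, a choice made after seeing the data, the mean log2 ratio of Itch KO minus WT was -0.13 for Ccl24 and -0.25 for Prg2, against 1.02 and 0.90 with Ptprc, and 0.01 for Siglecf, against 1.16. All 6 tested genes kept a positive log2 fold change under all 11 alternative fits. For each of them both Itch KO libraries lay above both WT libraries, so leaving out a library could hardly reverse a sign. The replicate numbers of the labels name no shared litter, batch or day; with the replicate block edgeR called 0 genes in all and 0 of these 9, and same-numbered libraries had correlated deviations (r = 0.182 across 16651 genes), which 2 pairs cannot settle. Depth limited Il5, Il5ra and Epx, with 5 counts or fewer in each library, and the WT values of Ccr3, Siglecf and Prg2, with 10 or fewer.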

Other observations

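Further genes of the eosinophil granule and eotaxin families, looked up after the values above were seen, were at or near 0. Prg3, the neighbour and homologue of Prg2 on chromosome 2, had 2 counts in each Itch KO library and 0 in each WT library. Ear14, on chromosome 14, had 0 counts in all 4 libraries. Ccl26, the gene for the third eotaxin on chromosome 5, also had 0 counts in all 4 libraries, which allows up to 3 counts in each.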
